A study of Mus musculus with 24 samples.

Results

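The import translocases are the protein machines that carry nuclear-encoded mitochondrial proteins across the outer and inner mitochondrial membranes. Their genes were taken by symbol: every Timm or Tomm symbol followed by a number, plus Pam16, Dnajc19, Grpel1, Grpel2, Chchd4 and Gfer, leaving out pseudogenes. The rule found 30 genes, with the same identifiers and symbols in both count tables, of 39,017 genes in the chow table and 38,483 in the high-fat diet (HFD) table. It used no measured value.

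Nearly all mitochondrial proteins are made in the cytosol and enter through the TOM complex of the outer membrane. From there, proteins with a cleavable presequence pass through the TIM23 translocase and are pulled into the matrix by a motor built around the chaperone mtHSP70. Carrier proteins reach the TIM22 translocase with the help of small TIM chaperones of the intermembrane space, where the MIA pathway of Chchd4 and Gfer inserts disulfide bonds. Fat cells with many mitochondria, such as brown and beige adipocytes, depend on this traffic to build their respiratory chain.

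Whole subcutaneous white fat of the groin was profiled by mRNA sequencing in C57BL/6J mice. All groups carried a transgenic γ1 chain of the energy-sensing kinase AMPK, in WT-Tg the wild-type chain and in D316A-Tg a gain-of-function form. The chow groups were aged 16 weeks and the groups on a 45% HFD were aged 24 weeks, with 6 libraries in each of the 4 groups. Per the labels' protocols, tissue was freed of its lymph node before freezing. The promoter that drove the transgene is not given in the sources used here, and the labels do not say that libraries came from separate animals, so p-values reflect only sample-to-sample spread, which may be technical. In bulk tissue, fewer cells of a type and less RNA per cell cannot be told apart. Diet, age and base-calling software differed together between the tables, so genotypes were compared within each table.

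Libraries held 13,254,536 to 22,748,132 counts, of which 15,093 to 28,387 fell on the 30 genes. All 12 adipocyte markers were detected in every group, with mean log2 levels of 9.40 to 11.29. Lymphocyte markers split the libraries: the mean log2 CPM of 10 B lymphocyte markers lay above 3 in 4 of 6 WT-Tg and 2 of 6 D316A-Tg libraries on chow, and in 1 of 6 and 4 of 6 on HFD. CPM is counts per 1000000 of the scaled library, and these libraries are called lymphocyte-rich below. None of the 10 B lymphocyte or 15 skeletal muscle markers was at 0 in any group. Summed over the 15 muscle markers, the chow libraries ranged from 37.4 to 12253 CPM (WT-Tg) and from 43.9 to 665 CPM (D316A-Tg), and the HFD libraries from 45.5 to 258 and from 271 to 22977 CPM. The summed B lymphocyte markers ranged from 15.3 to 2411 and 7.37 to 1760 CPM on chow, and from 17.7 to 617 and 24.5 to 1045 on HFD. Summed brown and beige adipocyte markers ranged from 134 to 861 CPM (WT-Tg) and from 875 to 1768 CPM (D316A-Tg) on chow, and from 182 to 700 and from 122 to 1863 CPM on HFD. The part of these differences in the results below was not tested beyond the fits given with them.

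Promoter sequences from RefSeq (GRCm38.p6, from 250 bases before to 50 after the start) were matched for 26 of the 30 genes, including the 11 that rose on chow. Shown are the 250 bases before the start for those whose upstream part holds a complete NRF1 half-site pair or ERR element, motifs of factors known to act on nuclear genes for mitochondrial proteins. Capitals mark the NRF1 pair in Chchd4, Pam16 and Tomm20, and the ERR element in Timm8b. The windows, on their genes' own strands, are chr6:91473424-91473673 (minus) for Chchd4, chr16:4624947-4625196 (minus) for Pam16, chr8:126945922-126946171 (minus) for Tomm20 and chr9:50603651-50603900 (plus) for Timm8b.
Chchd4: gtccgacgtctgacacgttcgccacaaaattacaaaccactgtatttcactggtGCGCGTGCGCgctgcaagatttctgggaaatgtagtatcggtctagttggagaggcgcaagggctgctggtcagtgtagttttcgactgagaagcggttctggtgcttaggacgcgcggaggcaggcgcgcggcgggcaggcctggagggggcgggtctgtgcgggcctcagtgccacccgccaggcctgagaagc
Pam16: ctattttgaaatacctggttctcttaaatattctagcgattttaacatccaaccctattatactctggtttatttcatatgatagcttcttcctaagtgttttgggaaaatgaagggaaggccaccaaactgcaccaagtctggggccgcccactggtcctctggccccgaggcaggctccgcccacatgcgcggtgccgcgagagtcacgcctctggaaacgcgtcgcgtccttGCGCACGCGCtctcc
Tomm20: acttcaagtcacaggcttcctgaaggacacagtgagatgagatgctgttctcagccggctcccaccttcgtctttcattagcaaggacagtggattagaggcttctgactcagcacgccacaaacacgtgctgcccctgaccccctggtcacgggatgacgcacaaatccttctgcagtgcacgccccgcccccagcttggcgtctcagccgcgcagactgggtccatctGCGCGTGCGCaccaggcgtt
Timm8b: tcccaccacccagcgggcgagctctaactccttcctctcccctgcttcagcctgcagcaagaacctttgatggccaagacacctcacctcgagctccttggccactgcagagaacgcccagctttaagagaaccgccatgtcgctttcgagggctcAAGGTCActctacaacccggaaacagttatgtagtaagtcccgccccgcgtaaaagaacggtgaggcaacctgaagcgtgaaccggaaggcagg
The NRF1 pair begins 196 bases before the start in Chchd4, 15 in Pam16 and 20 in Tomm20, and the ERR element begins 94 bases before the start in Timm8b. Of these 4 genes, Chchd4 and Timm8b rose on chow, while Tomm20 and Pam16 did not pass the test, at log2 fold changes of 0.28 and -0.61.

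Over the whole 300-base windows, searched on both strands, the NRF1 pair (GCGCANGCGC) was found in 4 of the 26 promoters and in 4.78% of all 27025 promoters. The ERR element (AAGGTCA) was found in 3 (4.66% of all), the E-box (CACGTG) in 5 (7.24%), the CCAAT box (CCAAT) in 9 (37.9%) and the ETS core (CCGGAAG) in 9 (9.12%). Among the 11 genes that rose on chow, 2 held the NRF1 pair, 3 the ERR element, 3 the E-box, 3 the CCAAT box and 5 the ETS core. The ERR element was in Timm23, Timm44 and Timm8b, all of which rose, and in Timm23 it overlaps an ETS core. Timm8b also holds the NRF1 pair, after its start. Median GC content was 59.2% in these promoters and 52.7% in all. A match describes letters in the window and does not show binding.

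On chow, D316A-Tg fat had more mRNA of genes of the TOM complex, the small TIM chaperones, the MIA pathway, the TIM23 translocase and its motor, while the 1 TIM22 gene and the cytosolic Tomm34 did not pass the test. Of 27 genes that passed the filter on low counts, 11 rose and 0 fell, at a median log2 fold change of 0.54. They were the TOM genes Tomm5 and Tomm70a, the small TIM genes Timm8a1, Timm8b, Timm9 and Timm10, Chchd4 of the MIA pathway, Timm17a and Timm23 of the TIM23 channel, and Grpel1 and Timm44 of the motor. The test was edgeR's quasi-likelihood F test, and a gene was called when its p, adjusted across every gene in the fit by Benjamini-Hochberg, was under 0.05. By the same test 5.30% of all 15249 genes tested rose and 3.25% fell, with a median of -0.07. At an unadjusted p below 0.05, 21 of the 27 were higher and 2 lower, against 16.7% and 13.2% of all genes tested, and DESeq2 called 17 higher and 2 lower (12.1% of all genes higher). The other 3 genes had too few counts to be tested: Timm8a2 with at most 7 in a chow library, Tomm6 with at most 16, and Tomm20l with 0 in all 24 libraries, which allows up to 0.226 CPM in the smallest library. Tomm6 also overlaps other genes over 84.2% of its exons.

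**Figure D1:**
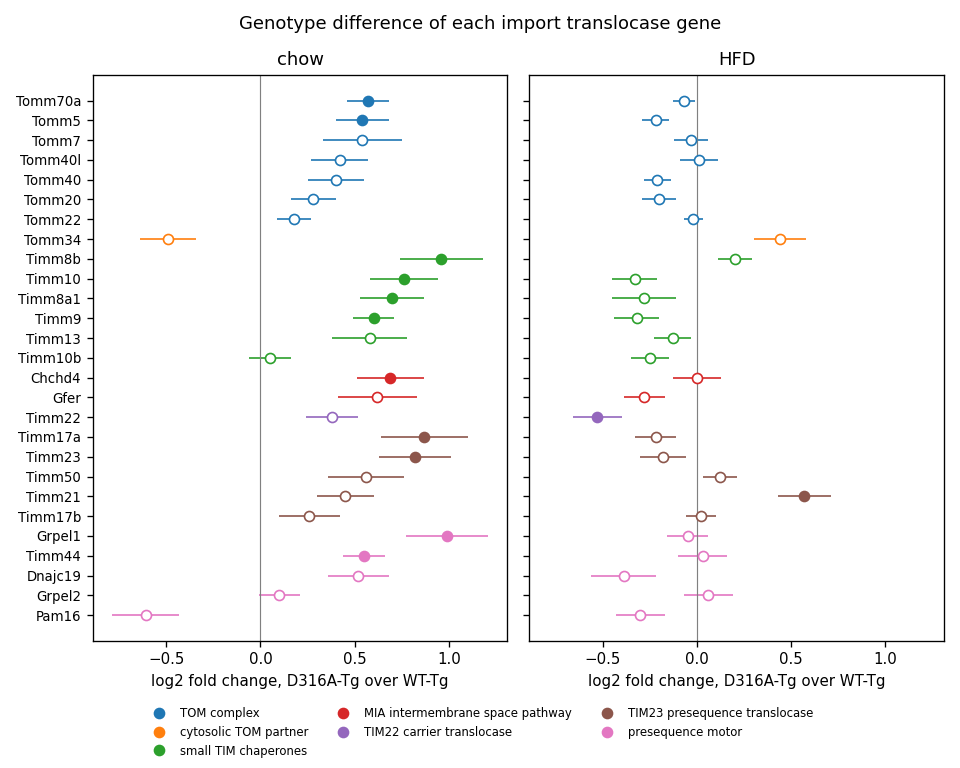
Log2 fold change of each tested import translocase gene in D316A-Tg over WT-Tg (horizontal axis, bars ± SE, 6 libraries a group) on chow (left) and HFD (right), coloured by complex and filled where the adjusted p was below 0.05. On chow 25 of 27 points lie right of 0 and 11 are filled, while on HFD 8 lie right of 0 and 2 are filled.

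In the TOM complex, 2 of 7 tested genes rose on chow. Tomm70a, the receptor for carrier precursors (ENSMUSG00000022752, chromosome 16, 57121703 to 57156705), was at 68.7, 73.7 and 85.9 CPM (lowest, median and highest library) in WT-Tg and at 85.5, 114 and 132 CPM in D316A-Tg. Only the lowest D316A-Tg library reached the WT-Tg range. The log2 fold change of Tomm70a was 0.57 (SE 0.11, adjusted p = 0.0176). Tomm5, a small subunit of the channel (ENSMUSG00000078713, chromosome 4, 45105208 to 45108114), was at 19.8, 24.1 and 30.1 CPM in WT-Tg and 29.5, 34.9 and 46.0 CPM in D316A-Tg, with 5 D316A-Tg libraries above the highest WT-Tg library. Tomm5 rose by 0.54 on the log2 scale (SE 0.14, adjusted p = 0.0362). The pore protein Tomm40 had a log2 fold change of 0.40, its relative Tomm40l 0.42, the small subunit Tomm7 0.54, the presequence receptor Tomm20 0.28 and the central receptor Tomm22 0.18, none of which passed the test. Tomm40l overlaps Nr1i3 on the opposite strand over 64.3% of its exons, and whether counting used strand is not given in the sources used here.

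Tomm34, a cytosolic cochaperone that binds precursors before import (ENSMUSG00000018322, chromosome 2, 164053540 to 164071169), had the opposite sign. It was at 42.7, 58.3 and 63.7 CPM in WT-Tg and 33.9, 34.7 and 55.7 CPM in D316A-Tg. The 4 lymphocyte-rich WT-Tg libraries held 56.0 to 63.7 CPM and the other 2 WT-Tg libraries 42.7 and 45.1, and the highest D316A-Tg library, number 8, was also lymphocyte-rich. Its log2 fold change of -0.49 (SE 0.15) did not pass the test (adjusted p = 0.0653). With a term for such libraries it was -0.33 and passed (adjusted p = 0.00619), in a fit that called 28.9% of all genes.

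Small TIM chaperones guide hydrophobic precursors across the intermembrane space, and 4 of the 6 tested rose. Timm9 (ENSMUSG00000021079, chromosome 12, 71123173 to 71136684), which forms a hexamer with Timm10, was at 19.2, 22.8 and 28.2 CPM in WT-Tg and 29.5, 34.4 and 40.6 CPM in D316A-Tg. The groups did not overlap, and the difference was 0.60 on the log2 scale (SE 0.11, adjusted p = 0.0164). Timm10 (ENSMUSG00000027076, chromosome 2, 84826997 to 84830213) was at 11.0, 17.2 and 21.5 CPM in WT-Tg and 20.2, 30.1 and 34.9 CPM in D316A-Tg. One lymphocyte-rich D316A-Tg library lay inside the WT-Tg range, and the log2 fold change was 0.76 (SE 0.18, adjusted p = 0.0327).

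Timm8b, a partner of Timm13 (ENSMUSG00000039016, chromosome 9, 50603910 to 50605320), was at 34.2, 44.1 and 63.2 CPM in WT-Tg and 54.0, 98.3 and 123 CPM in D316A-Tg. Its log2 fold change of 0.96 (SE 0.22, adjusted p = 0.0288) was the largest of the small TIM genes tested. Nkapd1 overlaps 15.6% of its exons on the opposite strand. Timm8a1, the mouse relative of the human deafness dystonia gene TIMM8A (ENSMUSG00000048007, chromosome X, 134537256 to 134541865), was low, at 2.08, 2.62 and 3.23 CPM in WT-Tg and 3.30, 4.44 and 5.00 CPM in D316A-Tg. The groups did not overlap, on 36 to 78 counts a library, and its log2 fold change was 0.70 (SE 0.17, adjusted p = 0.0324). Timm13 had a log2 fold change of 0.58 (adjusted p = 0.0798) and Timm10b one of 0.05 (adjusted p = 0.777).

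Chchd4, the import receptor and oxidoreductase of the MIA pathway (ENSMUSG00000034203, chromosome 6, 91462172 to 91473546), was at 14.8, 20.5 and 24.4 CPM in WT-Tg and 20.8, 35.0 and 39.9 CPM in D316A-Tg. It was above the WT-Tg range in 5 D316A-Tg libraries, with a log2 fold change of 0.69 (with SE 0.18 and adjusted p = 0.0371). Gfer, the sulfhydryl oxidase that reoxidises Chchd4, had a log2 fold change of 0.62 and did not pass (adjusted p = 0.0773). Timm22, the channel of the carrier translocase, had one of 0.38 (adjusted p = 0.0948).

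In the TIM23 translocase, 2 of 5 genes rose. Timm17a, a channel subunit (ENSMUSG00000062580, chromosome 1, 135295213 to 135313778), was at 34.8, 48.5 and 64.3 CPM in WT-Tg and 48.0, 99.0 and 117 CPM in D316A-Tg. The lowest D316A-Tg library, the lymphocyte-rich number 8, sat near the WT-Tg median, and the log2 fold change was 0.87 (SE 0.23, adjusted p = 0.0405). Timm23, its channel partner (ENSMUSG00000013701, chromosome 14, 32180162 to 32201898), was at 5.28, 6.56 and 10.2 CPM in WT-Tg and 8.55, 13.1 and 14.2 CPM in D316A-Tg. One WT-Tg library, number 6, lay apart from the other WT-Tg libraries and inside the D316A-Tg range. The log2 fold change of Timm23 was 0.82 (SE 0.19, adjusted p = 0.0278). The presequence receptor Timm50 had a log2 fold change of 0.56, the regulatory subunit Timm21 0.45 and the second channel form Timm17b 0.26, and none of these passed the test.

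In the presequence motor, Grpel1 and Timm44 rose. Grpel1, the nucleotide exchange factor of mtHSP70 (ENSMUSG00000029198, chromosome 5, 36464998 to 36474080), had the largest fold change of the 27 genes, at 56.9, 81.6 and 97.7 CPM in WT-Tg and 85.8, 167 and 222 CPM in D316A-Tg. It rose by 0.99 on the log2 scale (SE 0.22, adjusted p = 0.0256), with 5 D316A-Tg libraries above the WT-Tg range. Tada2b overlaps 11.6% of its exons on the opposite strand. Timm44, which ties the motor to the channel (ENSMUSG00000002949, chromosome 8, 4259731 to 4275913), was at 65.4, 76.5 and 82.4 CPM in WT-Tg and 85.0, 114 and 129 CPM in D316A-Tg, with no overlap. Timm44 rose by 0.55 on the log2 scale (SE 0.11, adjusted p = 0.0213).

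Other motor genes differed in direction. Pam16, an inhibitory J-like protein of the motor, was at 2.38, 2.74 and 2.96 CPM in WT-Tg and 1.24, 1.77 and 2.21 CPM in D316A-Tg, on 18 to 50 counts a library. Every D316A-Tg library was below every WT-Tg library, but the log2 fold change of -0.61 (SE 0.18) did not pass the test (adjusted p = 0.0574). Pam16 was the only one of the 27 with this pattern, which held for 1.92% of all genes tested. The reverse pattern held for Timm44, Timm8a1 and Timm9, 3 of 27, and for 2.12% of all genes tested. Dnajc19, a J protein that stimulates mtHSP70, had a log2 fold change of 0.52 (adjusted p = 0.0578), and summed with its processed pseudogene Dnajc19-ps, with which it may share reads, one of 0.62 that passed (adjusted p = 0.0435). Grpel2, the second exchange factor, had one of 0.10 (adjusted p = 0.511).

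**Figure D2:**
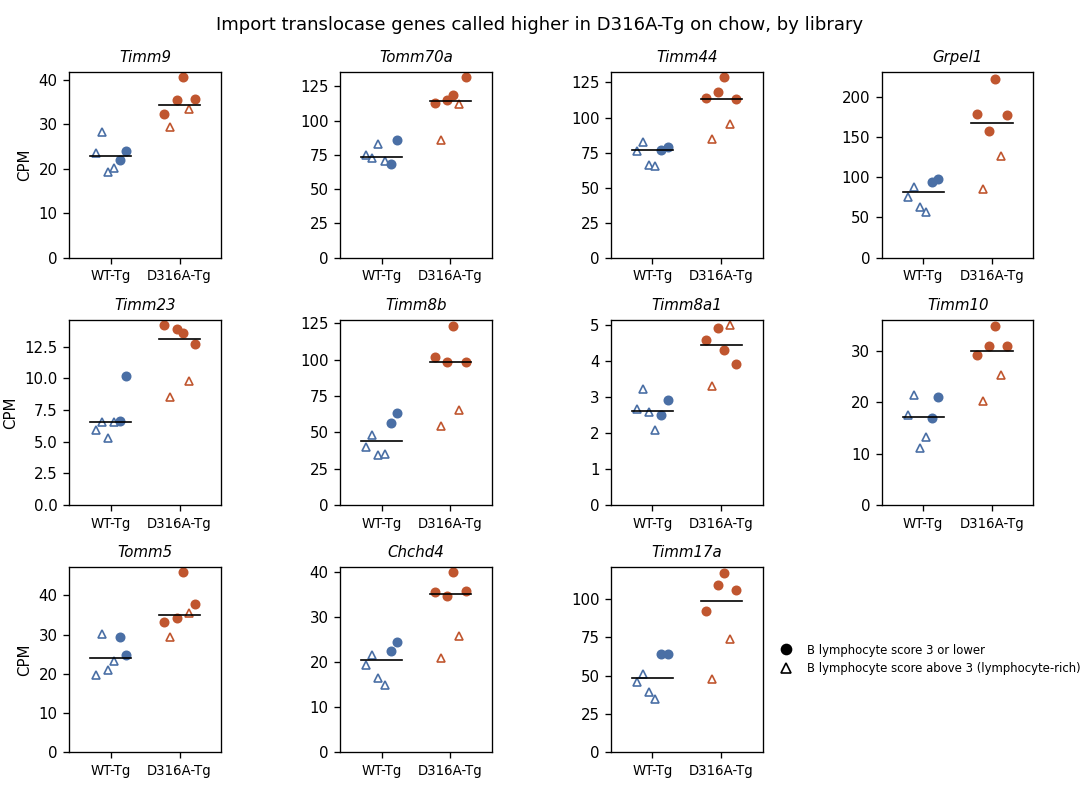
CPM of the 11 genes that rose on chow in each of 6 WT-Tg and 6 D316A-Tg libraries, with the median as a line and lymphocyte-rich libraries as open triangles. Both lymphocyte-rich D316A-Tg libraries are below the group median for most of the genes, and for Timm44, Timm8a1 and Timm9 they still lie above every WT-Tg library.

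Markers of several cell types moved with these levels. The mean log2 CPM of the tested genes was 4.61 to 4.94 in the 4 lymphocyte-rich WT-Tg libraries and 4.97 to 5.01 in the other 2, against 4.86 and 5.10 in the 2 lymphocyte-rich D316A-Tg libraries and 5.35 to 5.52 in the other 4. Adipocyte marker scores were 9.40 to 10.04 and 9.72 to 10.15 in the lymphocyte-rich libraries of WT-Tg and D316A-Tg, and 10.90 to 10.97 and 10.97 to 11.23 in the others, and with this score as a covariate the median was 0.27. In libraries that were not lymphocyte-rich, brown and beige marker scores were 3.93 and 3.94 (WT-Tg) against 4.89 to 5.72 (D316A-Tg). In the lymphocyte-rich libraries they were 2.55 to 5.11 (WT-Tg) against 5.09 and 5.97 (D316A-Tg). Summed over 6 endothelial markers, libraries held 386, 452 and 673 CPM (lowest, median and highest) in WT-Tg and 253, 292 and 445 CPM in D316A-Tg, and over 9 macrophage markers 511, 1151 and 2591 against 299, 493 and 1758 CPM. The part of the brown and beige, endothelial and macrophage markers in these results was not tested. With a term for lymphocyte-rich libraries, 17 genes were higher and 2 lower (Pam16 and Tomm34). Of all genes, 13.7% were then higher and 2319 of 15249 lower. With this term the median of the tested import genes fell from 0.54 to 0.35. Without the lymphocyte-rich libraries, with 2 WT-Tg against 4 D316A-Tg, 14 were higher and 1 lower at a median of 0.48 (7.59% of all genes higher and 1162 of 15064 lower). Among the lymphocyte-rich libraries alone, 4 against 2, edgeR called 0 (0.624% of all genes higher) and the median was 0.28. At an unadjusted p below 0.05, 10 were then higher and 2 lower, against 12.0% and 12.1% of all genes. With the skeletal muscle score as a covariate the median was 0.55 and 1 gene, Timm9, was called (0.872% of all genes higher). With both terms 9 were higher and 1 lower at a median of 0.27 (7.69% of all genes higher and 1346 of 15249 lower).

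Single libraries changed how many genes were called, in the whole table as in the import genes. Without D316A-Tg library 12 edgeR called 0 of 28 (0.496% of all genes called higher). At an unadjusted p below 0.05, 18 were then higher and 3 lower, against 12.1% and 10.4% of all genes. Without D316A-Tg 7 edgeR called 1 (0.502%). It called 2 without D316A-Tg 9 (0.682%), D316A-Tg 10 (0.882%) or WT-Tg 3 (0.834%), 3 without WT-Tg 1 (1.51%) or WT-Tg 4 (1.36%), and 5 without WT-Tg 2 (1.46%). Without the lymphocyte-rich D316A-Tg 8 it called 22, 21 higher and 1 lower (21.9% of all genes called in either direction). The median log2 fold change stayed between 0.44 and 0.61 in these fits. The call of Timm9 ended in 1 of the 12 fits, those of Tomm70a and Timm44 in 2 and 5, and those of the other 8 genes in 7 to 9.

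**Figure D3:**
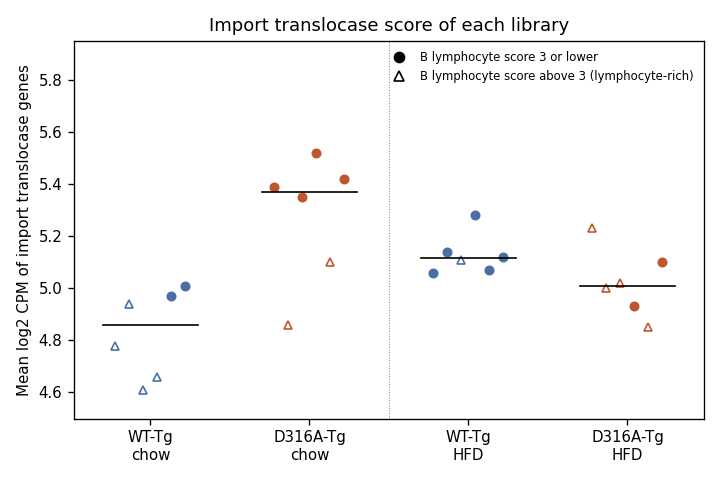
Mean log2 CPM of the tested import translocase genes in each of the 24 libraries by group, with the group median as a line and lymphocyte-rich libraries as open triangles. On chow the 4 D316A-Tg libraries that are not lymphocyte-rich sit at 5.35 to 5.52, above every WT-Tg library, and on HFD the groups overlap.

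The partners of the translocases showed the same direction on chow. Of 40 genes for chaperones, presequence peptidases, outer membrane assembly, cristae organisation and quality control, 20 rose and 0 fell, against 5.30% and 3.25% of all genes tested. At an unadjusted p below 0.05, 34 were higher, against 16.7% of all genes tested, and the median was 0.61. Hspe1, the cochaperonin that folds imported proteins, had a log2 fold change of 0.71 (with SE 0.11 and adjusted p = 0.00852), with no overlap between the groups. Immp2l, a subunit of the inner membrane peptidase, had one of 1.44, the cristae protein Chchd3 0.99 and the outer membrane protein Mtx2 0.76. Hspa9, the mtHSP70 of the motor itself, was at 368, 504 and 688 CPM in WT-Tg and 590, 998 and 1178 CPM in D316A-Tg, a log2 fold change of 0.83 (with SE 0.22 and adjusted p = 0.0429). The chaperonin Hspd1 (0.74) and the presequence peptidase subunit Pmpcb (0.76) also rose. For scale, 58 of 75 nuclear-encoded oxidative phosphorylation subunits rose, at a median of 0.89. With the lymphocyte term, the medians of the partners and of the subunits were 0.39 and 0.67. With the muscle score 4 of the 40 and 5 of the 75 rose (0.872% of all genes higher), at medians of 0.66 and 0.95. In the lymphocyte-rich libraries alone 0 of 40 and 2 of 75 rose (0.624% of all genes higher). Of the 40, 20 were then higher at an unadjusted p below 0.05, against 12.0% of all genes. The medians of the partners and of the subunits were then 0.36 and 0.64. The call of Hspe1 ended in 0 of the 12 fits that left out a library, that of Immp2l in 2, of Chchd3 in 5, of Hspa9, Hspd1 and Mtx2 in 8 and of Pmpcb in 9.

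On HFD, 2 of the 27 import translocase genes tested passed the test, with Timm21 higher and Timm22 lower in D316A-Tg. At an unadjusted p below 0.05, 3 were higher and 9 lower, against 15.4% and 15.3% of all genes tested. The median log2 fold change was -0.13, and 8.47% of all 14649 genes tested were called in either direction. Timm22, the carrier channel (ENSMUSG00000020843, chromosome 11, 76406952 to 76416292), fell from 32.5, 36.8 and 38.5 CPM in WT-Tg to 19.1, 23.4 and 36.6 CPM in D316A-Tg. Library 12 of D316A-Tg lay within the WT-Tg range and the other 5 below it. Timm22 had a log2 fold change of -0.53 (with SE 0.13 and adjusted p = 0.0336). Timm21, which links TIM23 to the TOM complex (ENSMUSG00000024645, chromosome 18, 84946191 to 84951524), rose from 15.2, 16.6 and 19.6 CPM to 16.0, 25.1 and 31.9 CPM. Again D316A-Tg library 12 was inside the WT-Tg range and the other 5 above it, with a log2 fold change of 0.57 (with SE 0.14 and adjusted p = 0.0338).

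Both HFD calls changed when single libraries were left out, as did the share of all genes called. Each ended in 9 of 12 such fits, those without WT-Tg 1, 2, 4, 5 or 6 or D316A-Tg 7, 8, 9 or 11. In those 9 fits 2.19% to 4.34% of all genes were called, against 8.47% with all libraries. Across the 12 fits, adjusted p ran from 0.00118 to 0.0731 for Timm22 and from 0.00224 to 0.0737 for Timm21. Without D316A-Tg 12 edgeR called 2 higher and 6 lower (26.3% of all genes called). With the lymphocyte term Timm22 had a log2 fold change of -0.38 (adjusted p = 0.13) and Timm21 one of 0.40 (adjusted p = 0.194). In that fit 0 of the 27 were called (0.539% of all genes called). At an unadjusted p below 0.05, 1 was higher and 5 lower, against 8.61% and 8.82% of all genes. DESeq2 called 2 higher and 3 lower (19.1% of all genes called). Skeletal muscle markers were higher in D316A-Tg here, and with the muscle score as a covariate edgeR called 0 of all 14649 genes, 967 at an unadjusted p below 0.05, of which 0 were among the 27. Timm21 then had a log2 fold change of 0.16 (adjusted p = 0.869) and Timm22 one of -0.40 (adjusted p = 0.737). With the muscle score and the lymphocyte term together, that of Timm21 turned to -0.02 (adjusted p = 0.995) and that of Timm22 was -0.29 (adjusted p = 0.84).

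On HFD, 8 of the 11 genes called higher on chow had a negative estimate, Chchd4 one that rounds to 0.00, and Timm8b and Timm44 a positive one smaller than on chow. Grpel1 was at 98.1, 106 and 125 CPM in WT-Tg and 79.9, 103 and 135 CPM in D316A-Tg (log2 fold change -0.05), and Chchd4 at 17.6, 19.5 and 22.3 against 15.7, 19.3 and 27.5 CPM (adjusted p = 0.996). In both, the D316A-Tg range enclosed that of WT-Tg. Timm44 had a log2 fold change of 0.03, Tomm70a -0.07, Timm23 -0.18, Timm17a -0.22, Tomm5 -0.22, Timm8a1 -0.28, Timm9 -0.32 and Timm10 -0.33, and Timm8b one of 0.20. None passed the test on HFD. Tomm34 was at 19.6, 22.6 and 29.5 CPM in WT-Tg and 20.5, 33.3 and 38.8 CPM in D316A-Tg, a log2 fold change of 0.44 (adjusted p = 0.0736). Of the import partners, edgeR called 0 of 40 on HFD (8.47% of all genes called). At an unadjusted p below 0.05, 2 were higher and 2 lower, against 15.4% and 15.3% of all genes tested. Hspa9 was at -0.04, Hspd1 at 0.02 and Pmpcb at 0.02.

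The difference of the genotype effect between the diets was tested in a single fit of all 24 libraries. Of 28 genes, 16 had a more negative effect on HFD than on chow and 1 a more positive one, against 6.86% and 6.08% of all 16072 genes tested. The 16 were Timm8a1, Timm8b, Timm9, Timm10 and Timm13, Chchd4 and Gfer, Timm22, Timm17a and Timm23, Grpel1 and Dnajc19, and Tomm5, Tomm20, Tomm40 and Tomm70a. Among them, the WT-Tg mean CPM of Timm23 and Dnajc19 was 7.01 and 2.64 times as high in the HFD table as in the chow table. Whether both tables counted these genes alike was not tested, so their differences may not compare like with like. Timm9 had the lowest adjusted p, with a difference of -0.91 (SE 0.17, adjusted p = 0.00335), followed by Tomm70a at -0.63 (SE 0.12, adjusted p = 0.00401). Timm10 and Timm17a had the largest differences of those called, both -1.07 (SE 0.23 and 0.26). Tomm34 was the exception, at 0.95 (SE 0.22, adjusted p = 0.00875), with a negative estimate on chow and a positive one on HFD. Timm44, which rose on chow, did not pass this test (-0.51, adjusted p = 0.0636).

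The number of genes called in the diet difference changed with terms for cell content, as did the share of all genes called. The cause was not tested. Lymphocyte-rich libraries were more frequent in WT-Tg on chow and in D316A-Tg on HFD. With a term for them, 8 genes stayed more negative on HFD and 1 more positive (2.53% and 3.93% of all genes), and the median went from -0.61 to -0.40. Those 8 were Timm8a1, Timm9, Timm10, Timm17a, Timm22, Timm23, Tomm5 and Tomm70a, with the limit given above for Timm23. With the muscle score as a covariate the median was again -0.61 but edgeR called 0 of 28 (0.510% of all genes more negative). At an unadjusted p below 0.05, 1 was then more positive and 19 more negative, against 13.5% and 13.9% of all genes. Leaving out single libraries gave 13 to 21 called genes, while the share of all genes called ranged from 8.40% to 26.5%. The 21 came from the fit without chow D316A-Tg 8, which had the 26.5%. Diet, age, table and base-calling software cannot be told apart in this difference.

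**Figure D4:**
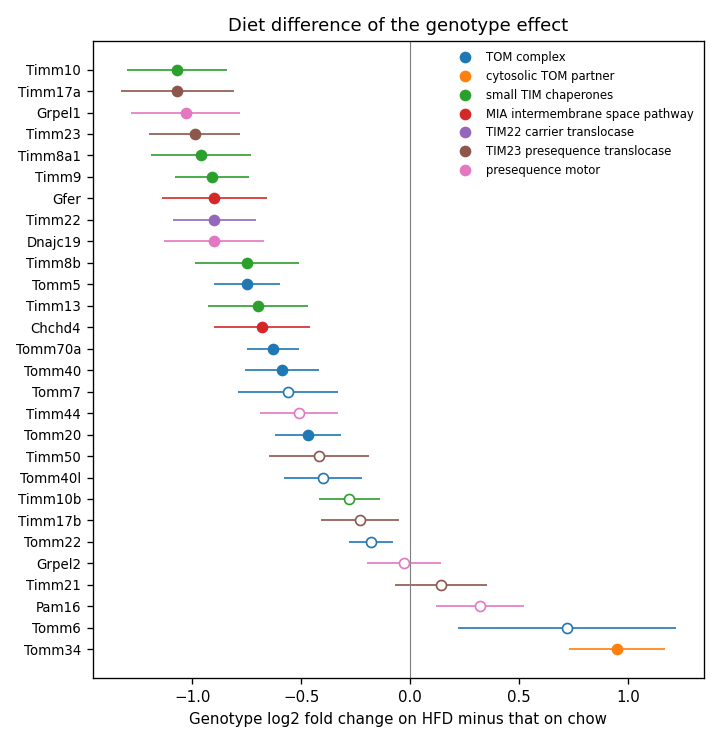
Genotype log2 fold change on HFD minus that on chow (horizontal axis, bars ± SE) for 28 import translocase genes in all 24 libraries, coloured by complex and filled where the adjusted p was below 0.05. Filled points to the left of 0 number 16, and Tomm34 at 0.95 is the filled point to the right.

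Within 2 of 4 pairs of related genes, the balance differed between the genotypes on chow. The log2 ratio of Timm17a to Timm17b was 1.23 ± 0.29 (SD, n = 6) in WT-Tg and 1.83 ± 0.24 in D316A-Tg, a difference of 0.60 (exact two-sided permutation p = 0.00649, adjusted p = 0.0173 over 8 tests). That of Grpel1 to Grpel2 went from 1.65 ± 0.48 to 2.50 ± 0.58 (exact permutation p = 0.0238, adjusted p = 0.0476), and this call ended in 9 of 12 fits that left out a library, all but those without WT-Tg 5, WT-Tg 6 or D316A-Tg 8, with adjusted p up to 0.0952. In each case 4 of 6 D316A-Tg libraries lay above the WT-Tg range. Grpel1 to Grpel2 was also lower in lymphocyte-rich libraries, at 1.12 to 1.74 in those of WT-Tg and 2.20 in both others. In D316A-Tg it was 1.56 to 2.11 in the lymphocyte-rich libraries and 2.49 to 3.08 in the others. Timm17a to Timm17b was lower in the lymphocyte-rich libraries of WT-Tg (0.83 to 1.28, others 1.32 to 1.70). In D316A-Tg its values overlapped, at 1.49 to 1.93 in the lymphocyte-rich libraries and 1.58 to 2.09 in the others.

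The ratio of Tomm40 to Tomm40l did not differ detectably on chow (-0.04, exact permutation p = 0.626), nor did that of Timm8a1 to Timm8b (-0.27, exact permutation p = 0.221). On HFD these 2 ratios were the ones that differed. Tomm40 to Tomm40l was 0.46 ± 0.03 in WT-Tg and 0.26 ± 0.19 in D316A-Tg, and Timm8a1 to Timm8b was -3.13 ± 0.09 and -3.64 ± 0.34 (exact permutation p = 0.00649 for each, adjusted p = 0.0173). Tomm40 to Tomm40l was -0.07 to 0.39 in the lymphocyte-rich D316A-Tg libraries and 0.34 and 0.44 in the others, against 0.42 to 0.50 in WT-Tg. The lowest value was in D316A-Tg library 7, which had the highest muscle score (9.30). The part of cell content in these ratios was not tested. All 4 lymphocyte-rich D316A-Tg libraries were below the WT-Tg range of Timm8a1 to Timm8b. Of the other 2, number 10 was also below it (-3.84) and number 12 inside it (-3.18). The lymphocyte-rich WT-Tg library was at -3.09, inside the range of the other WT-Tg libraries (-3.27 to -3.02). On chow the lymphocyte-rich libraries were higher in this ratio. Those of D316A-Tg were at -3.98 and -3.68, the others at -4.80 to -4.29. In WT-Tg the others (-4.43 and -4.39) lay below every lymphocyte-rich library. Timm17a to Timm17b (-0.25) and Grpel1 to Grpel2 (-0.11) did not pass on HFD, with exact permutation p of 0.143 and 0.45.

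**Figure D5:**
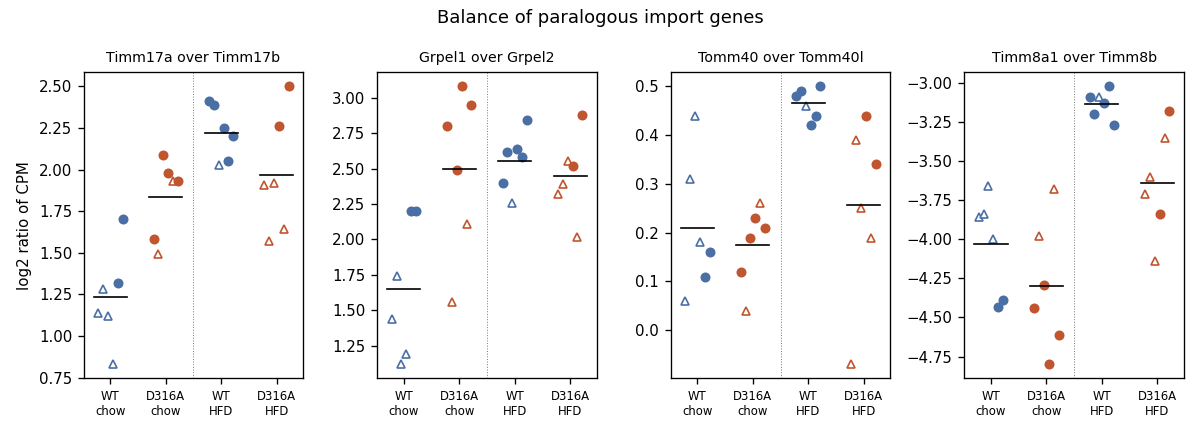
Log2 ratio of CPM of 4 pairs of related import genes in each library by genotype and diet, with the group mean as a line and lymphocyte-rich libraries as open triangles. On chow the D316A-Tg means of Timm17a over Timm17b (1.83) and Grpel1 over Grpel2 (2.50) are above those of WT-Tg (1.23 and 1.65), and on HFD the D316A-Tg means of the other 2 ratios are lower.

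Levels among the genes spanned a wide range. Per kilobase of exon, WT-Tg chow means were highest for Tomm7 (99.2 CPM per kb), Timm8b (89.2), Timm13 (42.0) and Tomm22 (40.5), and of the tested genes lowest for Pam16 (1.11), Timm8a1 (1.87), Grpel2 (3.68), Chchd4 (3.82) and Timm23 (3.84). Timm17a and Timm17b were close, at 6.33 and 8.13 CPM per kb, as were Tomm40 and Tomm40l at 10.6 and 8.06. The tables did not put each gene on the same footing: the WT-Tg mean CPM of Pam16 was 7.94 times as high in the HFD table as in the chow table and that of Timm23 7.01 times. A ratio above 4 occurred in these 2 of 27 genes and in 1.84% of 14098 genes tested in both tables. Dnajc19-ps went the other way, at 18.2 ± 4.53 CPM in WT-Tg on chow and 1.22 ± 0.185 on HFD, while Dnajc19 was 2.64 times as high on HFD. Levels were therefore not compared between diets.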

How the data were processed

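The deposited values are whole-number read counts per gene, which the authors made from stranded TruSeq mRNA libraries, in a chow and an HFD table of 12 libraries each. Per the submitters' processing notes, tools included STAR 2.4.1, FastQC and DESeq2, with build mm10. Per the labels, base calls came from bclfastq 2.16.0.10 (HFD tissue) or bcl2fastq 2.20.0.422 (chow tissue). How reads were counted, with which annotation and strand setting, is not given in the sources used here. Columns and groups were matched by label.

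Genes were tested within each table with edgeR 4.0.16 (R 4.3.3; TMM, filterByExpr, robust quasi-likelihood F test), adjusted over all genes tested, with limma 3.58.1 and DESeq2 1.42.0 as alternatives. The gene tests within each table were run on simulated counts with a fixed dispersion and planted changes. Those counts held no differences in cell content, so they cannot show how the tests perform on these libraries. The diet-difference and permutation tests were not simulated. Log2 CPM had a prior count of 2. The member rule, gene lists, role groups and motifs were chosen with earlier results of these data known. Per-library values are given for members called on either diet and for the member with the lowest adjusted p of each role group, and for Pam16, which was chosen after its values were seen. Of the import partners, the 4 called with the lowest adjusted p in each diet, plus Hspa9, Hspd1 and Pmpcb, are named. Libraries with a B lymphocyte score above 3 were called lymphocyte-rich. The fits without or within them, the fit with both their term and the muscle score, and the sum of Dnajc19 and Dnajc19-ps were added after the data were seen. Positions are from GENCODE M21 on GRCm38. Replicates differed by far more than sampling noise (lowest chi-square per degree of freedom 14.4). Library numbers recur in both diets, but their deviations correlated between -0.44 and 0.62, so they do not pair libraries. Totals ranged from 13254536 to 22748132 counts a library, and genes with the fewest counts carry the largest counting error.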

Additional observations from a re-analysis of the deposited data

Results flagged for a closer look

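A single library stood apart from the other 5 of its group in 5 of the 108 groups of values examined, where chance gives about 1 in 20. Timm23 was at 10.2 CPM in WT-Tg library 6 on chow and at 5.28 to 6.62 in the others. Tomm34 was at 55.7 CPM in D316A-Tg library 8 on chow and at 33.9 to 42.1 in the others. On HFD, Dnajc19 was at 57.4 CPM in D316A-Tg library 12 (others 25.5 to 36.0), Grpel2 at 26.9 CPM in D316A-Tg library 7 (15.7 to 19.6) and Tomm40l at 39.9 CPM in WT-Tg library 4 (32.1 to 34.9).

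The genotype effect differed between the diets for 17 genes by the interaction test of edgeR at an adjusted p below 0.05. The effect on HFD minus that on chow, on the log2 scale, was -0.68 for Chchd4, -0.90 for Dnajc19, -0.90 for Gfer, -1.03 for Grpel1, -1.07 for Timm10, -0.70 for Timm13, -1.07 for Timm17a, -0.90 for Timm22, -0.99 for Timm23, -0.96 for Timm8a1, -0.75 for Timm8b, -0.91 for Timm9, -0.47 for Tomm20, 0.95 for Tomm34, -0.59 for Tomm40, -0.75 for Tomm5 and -0.63 for Tomm70a. The calls of Chchd4, Timm13, Timm8b and Tomm20 ended in 16 or 17 of the 24 fits that left out a library. For Timm23 and Dnajc19, whether both tables counted the gene alike was not tested.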

How the results depend on the processing

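Percentages in parentheses are the share of all genes called in either direction by the same fit. On chow, against 11 called genes (8.54%), DESeq2 called 19 (19.6%) and limma voom 24 (71.0%). The B lymphocyte score as a covariate gave 18 (24.6%), the lymphocyte term 19 (28.9%) and all 24 libraries in a single fit 22 (22.5%). No filter beyond 1 count gave 7 (2.13%), the muscle score 1 (1.53%) and the lymphocyte-rich libraries alone 0 (0.923%). Leaving out single libraries gave 0 (without D316A-Tg 12, 0.908%) to 22 (without D316A-Tg 8, 21.9%). RLE or upper-quartile scaling, a mean count of at least 50 and no robust step each gave 11 (8.47%, 7.26%, 11.4% and 8.54%). The median of 0.54 became 0.29 with the B lymphocyte score, 0.27 with the adipocyte score, 0.27 with the lymphocyte term and muscle score, and 0.28 in lymphocyte-rich libraries alone. On HFD, against 2 (8.47%), DESeq2 called 5 (19.1%) and limma voom 11 (29.7%). The count was 0 with the B lymphocyte score (0.164%) and the lymphocyte term (0.539%). It was also 0 with the muscle score, the lymphocyte term with the muscle score, and without or within the lymphocyte-rich libraries (0% in each). Without single libraries it was 0 to 8, with 8 in the fit without D316A-Tg 12 (26.3%). At an unadjusted p below 0.05 these fits with 0 calls held 0 to 6 of the 27 genes. Of all genes, 3.11% to 8.61% were then higher and 3.00% to 8.82% lower. Fits without single libraries that called 0 held 7 to 10, against 12.4% to 13.5% of all genes higher and 11.9% to 13.8% lower. Timm21 on HFD went to -0.02 (adjusted p = 0.995) with the lymphocyte term and muscle score. The diet difference, 17 called (12.9%), gave 0 with the muscle score (0.933%), 8 with the B lymphocyte score (8.24%) and 9 with the lymphocyte term (6.45%). With the replicate number as a block it gave 16 (16.6%), 1 more positive and 15 more negative. Only 2 of 12 chow libraries correlated best with the HFD library of their own number. No paired analysis was possible within a diet because the genotypes share no number. Without single libraries, the paralogue differences kept their direction where they had passed. Adjusted over the same 8 tests, the exact permutation p of Timm17a to Timm17b on chow stayed at 0.0346 or less and those of both HFD ratios at 0.0476 or less, while Grpel1 to Grpel2 on chow (0.73 to 1.04) lost its call in 9 of 12 (adjusted p up to 0.0952). Tomm40 to Tomm40l on chow ranged from -0.06 to 0.01, and Timm17a to Timm17b on HFD from -0.36 to -0.18, passing without D316A-Tg 12 (adjusted exact permutation p = 0.0485). The cause of these changes was not tested.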
